A study of Homo sapiens with 6 samples.

Results

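The 42 genes described here encode the machinery of mitosis: cyclin-dependent kinase 1 (CDK1) with its cyclins and CDC25 phosphatases, the Aurora and Polo-like kinases, the spindle checkpoint, mitotic kinesins, kinetochore proteins and cytokinesis factors. They were taken as a list of gene names, and each was read from the array row with the highest mean among the rows annotated with exactly 1 gene symbol. In this way 41 of the 42 genes were measured, among 18404 genes tested. CENPA, the centromeric histone H3 variant, appeared only in a row annotated with several symbols and is not analysed here.

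The study measured total RNA of BE(2)-C, an established human neuroblastoma cell line with amplified MYCN, on Affymetrix gene-level arrays. The treated group was 3 samples kept for 24 h in 5 µM BIX01294, a compound that blocks the lysine methyltransferases encoded by EHMT2 and EHMT1, which act on histone H3. The control group was 3 samples kept for 24 h in 0.05% DMSO, and both groups grew in DMEM with dialyzed serum. The DMSO content of the treated samples is not recorded, the series text describes the samples as independent, and all 6 came from 1 cell line, so the groups describe that line alone.

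CDK1 bound to cyclin B drives cells into mitosis once CDC25 phosphatases remove the inhibitory phosphates placed by WEE1 and PKMYT1. Kinesins and kinetochores then attach chromosomes to the spindle, the spindle checkpoint holds CDC20 inactive until attachment is complete, and CDC20 with the anaphase-promoting complex triggers destruction of securin and cyclin B, which frees separase. Most of these genes are transcribed late in the cell cycle, through promoters that bind the MuvB complex at a short element called the CHR (cell cycle genes homology region) and the factor NF-Y at CCAAT boxes, whereas E2F sites are typical of genes expressed earlier, at the G1/S transition.

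Promoter sequences are shown for 6 of the 11 genes that passed the test below, because they include both genes that fell and differ in these elements. Each is the RefSeq window of 250 bases before to 50 bases after an annotated transcription start in GRCh38.p14, read 5′ to 3′ on the gene's own strand. Capitals mark words found on either strand: TTTGAA or TTTAAA for the CHR, CCAAT for the CCAAT box, and TTCCCGC or TTGGCGC for E2F. CDC25A, the phosphatase that also acts at G1/S, lies at chr3:48188368-48188667 on the minus strand. CDC25C, the phosphatase of the G2/M transition, lies at chr5:138331755-138332054 on the minus strand, and this is 1 of its 4 listed starts, of which 2 have a CHR word. The other 2 windows, not shown, hold an E2F word 170 and 184 bases before the start and no CHR or CCAAT word. CCNB1, encoding cyclin B1, lies at chr5:69166900-69167199 on the plus strand. CDC20, the mitotic activator of the anaphase-promoting complex, lies at chr1:43358731-43359030 on the plus strand. ESPL1, encoding separase, lies at chr12:53268049-53268348 on the plus strand. ANLN, encoding the contractile ring scaffold anillin, lies at chr7:36389612-36389911 on the plus strand.
CDC25A: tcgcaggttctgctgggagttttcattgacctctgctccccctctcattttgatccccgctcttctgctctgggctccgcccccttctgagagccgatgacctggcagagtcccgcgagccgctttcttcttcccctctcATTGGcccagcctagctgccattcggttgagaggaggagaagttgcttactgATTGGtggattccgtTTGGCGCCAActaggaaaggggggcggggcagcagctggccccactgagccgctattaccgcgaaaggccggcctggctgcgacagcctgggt
CDC25C: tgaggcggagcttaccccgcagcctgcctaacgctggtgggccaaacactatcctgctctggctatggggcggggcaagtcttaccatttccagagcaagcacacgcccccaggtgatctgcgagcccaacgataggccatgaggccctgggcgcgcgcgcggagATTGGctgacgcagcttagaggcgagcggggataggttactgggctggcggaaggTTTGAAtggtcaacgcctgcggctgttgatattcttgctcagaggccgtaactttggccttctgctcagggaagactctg
CCNB1: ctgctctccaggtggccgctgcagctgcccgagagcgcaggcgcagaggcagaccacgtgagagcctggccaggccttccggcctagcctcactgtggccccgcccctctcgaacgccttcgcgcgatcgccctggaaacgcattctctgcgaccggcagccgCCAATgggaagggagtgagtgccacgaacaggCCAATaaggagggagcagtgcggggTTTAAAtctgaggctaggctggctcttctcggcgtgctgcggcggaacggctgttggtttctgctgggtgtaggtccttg
CDC20: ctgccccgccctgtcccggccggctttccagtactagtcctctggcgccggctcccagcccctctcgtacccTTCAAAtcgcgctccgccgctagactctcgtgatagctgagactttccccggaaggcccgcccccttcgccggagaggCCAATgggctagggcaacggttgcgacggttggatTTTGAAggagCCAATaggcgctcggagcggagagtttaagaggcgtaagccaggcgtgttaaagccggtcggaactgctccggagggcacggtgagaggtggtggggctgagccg
ESPL1: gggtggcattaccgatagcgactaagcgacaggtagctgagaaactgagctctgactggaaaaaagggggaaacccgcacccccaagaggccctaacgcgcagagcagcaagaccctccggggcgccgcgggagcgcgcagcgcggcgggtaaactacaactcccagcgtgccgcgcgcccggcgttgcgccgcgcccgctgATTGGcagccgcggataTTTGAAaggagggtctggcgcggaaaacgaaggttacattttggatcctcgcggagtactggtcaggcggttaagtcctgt
ANLN: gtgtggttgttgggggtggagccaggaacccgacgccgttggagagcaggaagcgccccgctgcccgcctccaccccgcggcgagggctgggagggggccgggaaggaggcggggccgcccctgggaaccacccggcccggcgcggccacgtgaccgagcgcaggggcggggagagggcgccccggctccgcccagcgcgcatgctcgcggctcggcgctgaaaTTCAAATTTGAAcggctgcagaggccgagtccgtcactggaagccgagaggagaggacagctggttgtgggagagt

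In these windows CDC25A held the E2F word TTGGCGC on both strands, at 40 and 43 bases before the start, with no CHR match. CDC25C held a CHR word 30 bases before the start, as did CCNB1, and ESPL1 held one 31 bases before it. A match is a description of letters and not evidence of binding.

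The identity and quality of the samples were checked first. Array medians over all rows lay between 6.94 and 7.01 on the log2 scale. MYCN lay at the 99.9th percentile of all genes tested, and the mean log2 value of the 10 measured neuroblastoma markers was 11.23 to 11.28 in BIX01294 arrays and 11.27 to 11.29 in DMSO arrays. Of those 10 markers, 2 were higher (log2 change 0.21 for GATA2 and 0.34 for ISL1) and 3 lower, among them GATA3 (-0.23) and CHGA (-0.19). The shares were 20% and 30%, against 12.9% and 10.7% of all genes. Without DMSO replicate 1, GATA2, GATA3 and CHGA no longer passed (adjusted p 0.0546, 0.0738 and 0.0682), nor did they without DMSO replicate 2 (0.0995, 0.061 and 0.074). The 12 measured markers of other cell types averaged 6.25 to 6.32 in BIX01294 arrays and 6.43 to 6.5 in DMSO arrays, with CD68 (log2 change 0.55) and S100B (0.42) higher and PDGFRB (-1.16) and DCN (-1.50) lower, while COL1A1, which is listed with PDGFRB and DCN for fibroblasts, had a change of -0.004 (adjusted p 0.975). The leukocyte marker PTPRC lay at percentile 2.4 and the hepatocyte marker ALB at percentile 4.6. PDGFRB lay at percentile 78.6, the leukocyte marker CD68 at 59.3, COL1A1 at 53.9, DCN at 50.7 and S100B at 46.9. The remaining measured markers lay between percentile 13.1 (CD3E) and 27.2 (CDH5). The part of these marker differences in the results below was not tested. CDK1 and CDC20, which mark the gene set, measured 10.66 or more and 10.45 or more on every array, above the all-gene median of 7.53.

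Changes in the mitotic genes between BIX01294 and DMSO were small, each of them less than 2-fold. Of the 41 measured members, 9 rose, 2 fell and 30 did not pass the test (limma, adjusted p under 0.05 over all 18404 genes). CDC25A (1.6-fold), ANLN (1.36-fold) and CDK1 (1.26-fold) rose most, while CDC25C fell 1.47-fold and ESPL1 fell 1.21-fold. The share that rose was 22%, against 12.9% of all genes tested. The share that fell was 4.88%, against 10.7% of all genes tested. All 41 members lay above the all-gene median on every array, whereas the all-gene shares here and below include dimmer genes. When only genes above the median of mean levels were tested, 12 of 41 members rose and 5 of 41 fell. Both shares were below those of all genes in that setting, so the excess of rises was not seen there. Without DMSO replicate 1, 5 of 41 members rose, against 1771 of 18404 genes (9.62%). After quantile normalization 5 of 41 members fell, against 2282 of 18404 genes (12.4%).

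The median log2 change over the 41 members was 0.04, with 27 positive and 14 negative values, beside a median of -0.006 over all genes. The median size of the change, regardless of sign, was 0.112 in the members and 0.114 in all genes. All 3 BIX01294 arrays lay above all 3 DMSO arrays in 15 members (36.6%), against 21.4% of all genes. They lay below in 6 members (14.6%), against 18.7% of all genes, and the groups overlapped in the remaining 20. In these bulk samples, fewer cells in mitosis and less RNA per cell cannot be told apart, and the same holds for rises.

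The transcripts were abundant in both groups. Mean values over the 6 arrays ran from 8.01 for CDC25C to 12.44 for PLK1, and 34 of the 41 members were above the upper quartile of all genes, 9.17. These values are log2 array signals, which depend on the probes, so they place a gene only roughly and were not used to compare one gene with another. Spread within groups was small, with a median SD of 0.052 in BIX01294 and 0.054 in DMSO. The largest SD was 0.15 in each group, for KIF15 in BIX01294 and for CDC25A in DMSO. Level and change were hardly related across the 41 genes (Spearman's rho 0.08), as a description of genes that share the same arrays.

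Taken array by array, the median deviation of the members from their DMSO means was 0.059, 0.033 and 0.083 in the BIX01294 arrays, against 0.013, 0.036 and -0.049 in the DMSO arrays. The groups overlapped, since DMSO replicate 2 lay above BIX01294 replicate 2. For all genes the same quantity was -0.029, 0.028 and -0.009 in the BIX01294 arrays, against 0.009, 0.005 and -0.015 in the DMSO arrays.

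**Figure D1:**
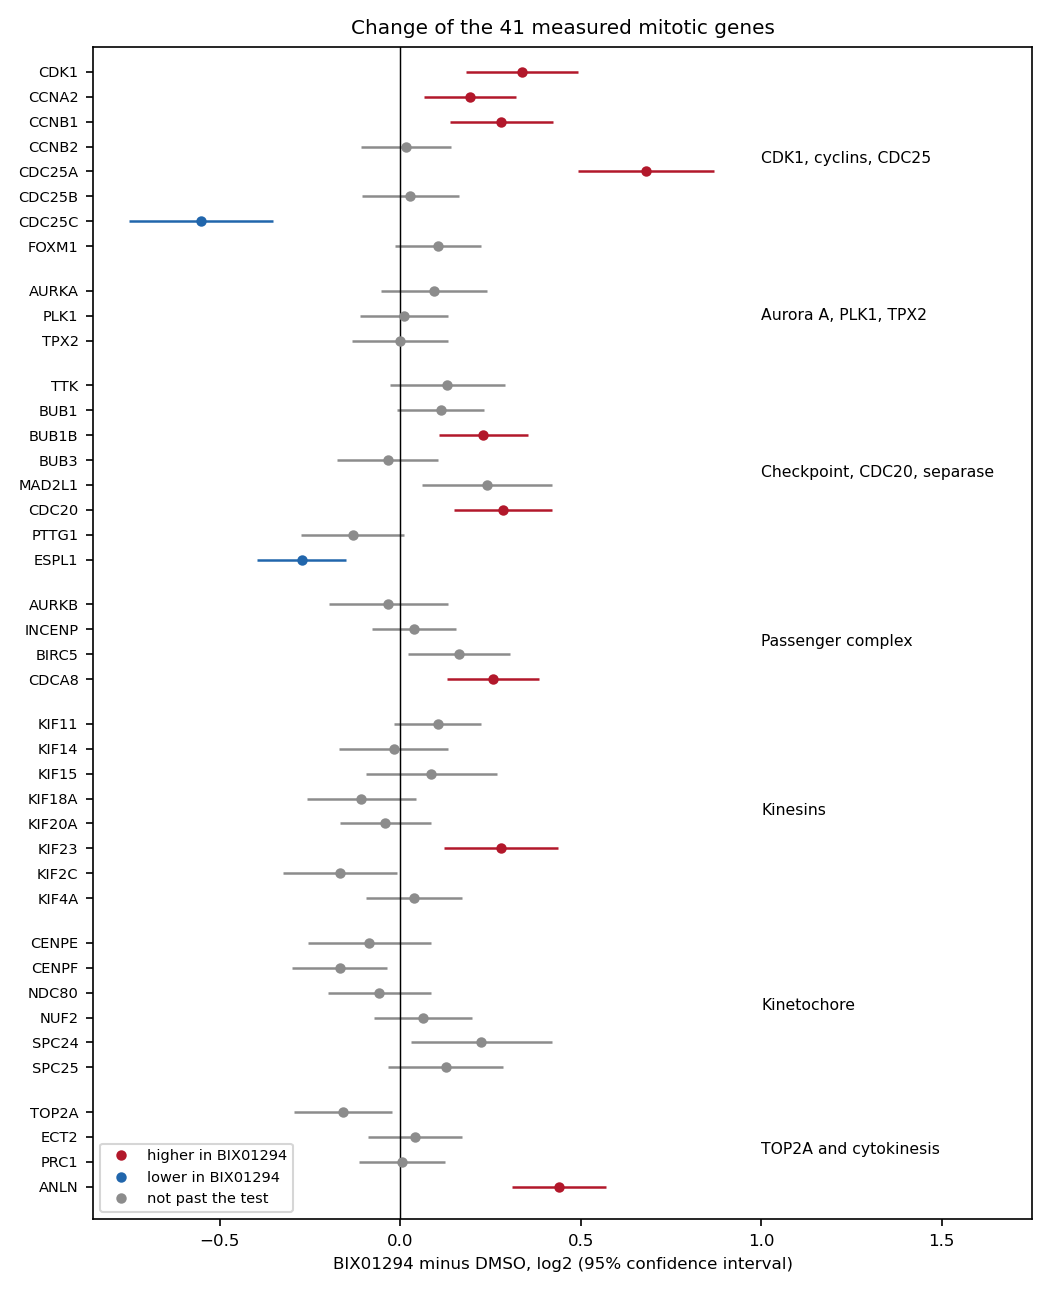
Change in expression of each of the 41 measured mitotic genes, BIX01294 minus DMSO on the log2 scale (horizontal axis), with 95% confidence intervals from limma and colours for genes that rose, fell or did not pass the test. The changes run from -0.55 for CDC25C to 0.68 for CDC25A, and most intervals of the 30 genes that did not pass include or lie close to 0.

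The regulators of mitotic entry held the largest changes in both directions, with a median change of 0.15. Of the 8, 4 rose (50%, against 12.9% of all genes) and 1 fell (12.5%, against 10.7%). CDK1, the kinase at the centre of mitotic entry, measured 11.07, 10.93 and 11.14 in BIX01294, against 10.66, 10.71 and 10.75 in DMSO. Every BIX01294 array lay above every DMSO array, and the log2 change was 0.34 with an SE of 0.067 (adjusted p 0.0085). CCNB1, whose protein activates CDK1 at entry into mitosis, measured 10.64, 10.52 and 10.56 in BIX01294, against 10.24, 10.37 and 10.26 in DMSO. It rose 1.21-fold without overlap between the groups (adjusted p 0.0135), and with DMSO replicate 1 left out its adjusted p was 0.0541.

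CCNA2, encoding the cyclin A2 of S phase and early mitosis, measured 11.67, 11.57 and 11.67 in BIX01294, against 11.44, 11.42 and 11.47 in DMSO. The groups were separate but close, with a log2 change of 0.19 and an adjusted p of 0.0364. That call held in 8 of 15 alternative settings (9 other ways to process the values and 6 in which 1 array is left out) and was lost on leaving out any 1 array other than BIX01294 replicate 2. CCNB2, the second B-type cyclin measured, averaged 12.06 ± 0.02 in BIX01294 and 12.04 ± 0.05 in DMSO (SD, n = 3 each), with a change of 0.02 and a 95% interval of -0.11 to 0.14. The difference between the changes of CCNB1 and CCNB2 was not tested.

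The CDC25 phosphatases activate the cyclin-dependent kinases. CDC25A measured 9.16, 9.15 and 9.07 in BIX01294, against 8.37, 8.63 and 8.35 in DMSO, a change of 0.68 with an SE of 0.082 (adjusted p 0.00090). The lowest BIX01294 value stood well above the highest DMSO value, and the 95% interval of the fold was 1.41 to 1.83. CDC25C measured 7.87, 7.68 and 7.65 in BIX01294, against 8.38, 8.34 and 8.14 in DMSO, a change of -0.55 with an SE of 0.087 (adjusted p 0.00301). Here every BIX01294 array lay below every DMSO array, so the phosphatase genes that passed moved in opposite directions.

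CDC25A and CDC25C kept their calls in all 15 alternative settings. CDC25B, which acts at centrosomes early in mitotic entry, had a change of 0.03 with an interval of -0.11 to 0.16. FOXM1, a transcription factor of late cell cycle genes, had a change of 0.11 with an interval of -0.01 to 0.22, although its 3 BIX01294 values lay above its 3 DMSO values.

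**Figure D2:**
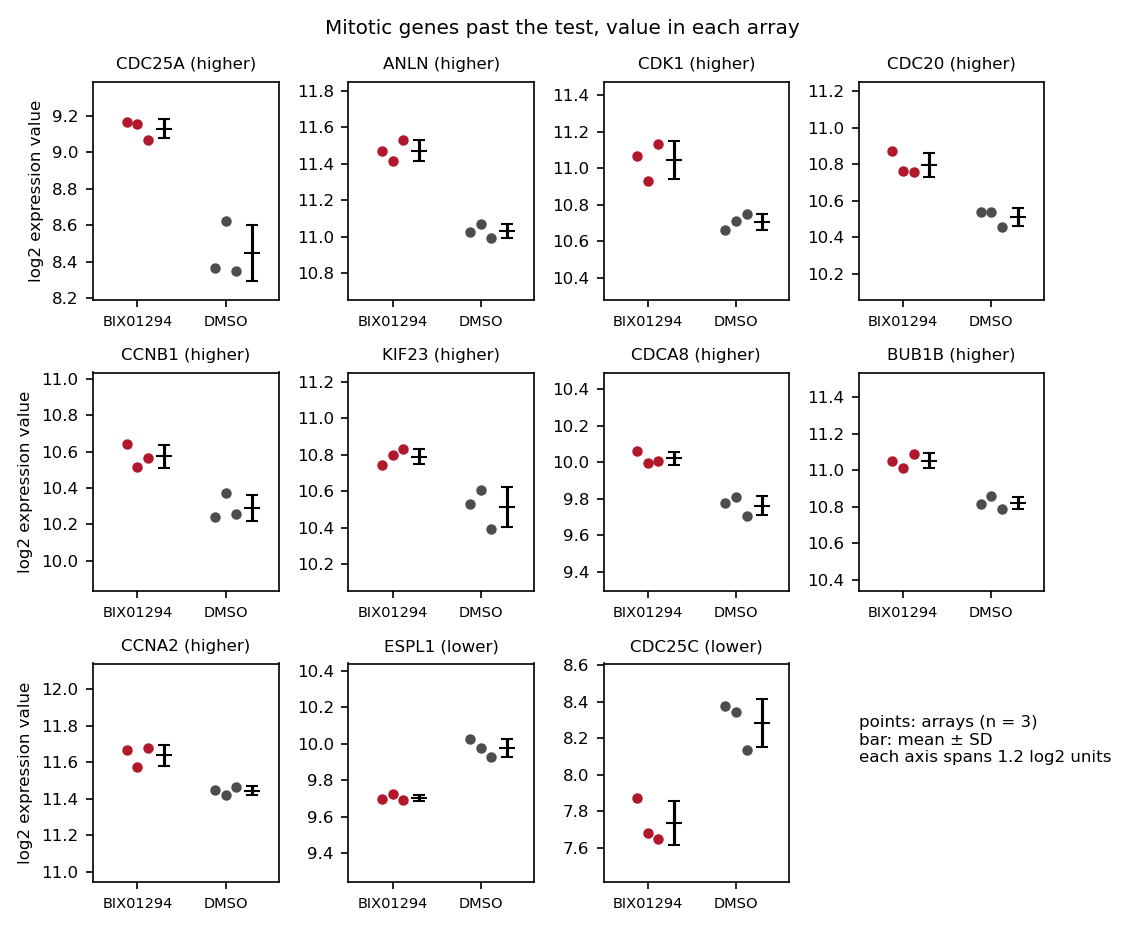
Log2 expression value in each array (points, 3 per group) with mean and SD (bars) for the 11 mitotic genes past the test, BIX01294 left of DMSO, each vertical axis spanning 1.2 log2 units. The groups do not overlap in any of the 11 genes, with CDC25C and ESPL1 lower and the other 9 higher in BIX01294.

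Aurora A, its activator TPX2 and Polo-like kinase 1, which mature centrosomes and build the spindle, held no member past the test. PLK1 averaged 12.44 ± 0.04 in BIX01294 and 12.43 ± 0.03 in DMSO (SD, n = 3 each), a change of 0.01 with an interval of -0.11 to 0.13. The change of TPX2 was -0.001 with an interval of -0.13 to 0.13, and that of AURKA was 0.09 with an interval of -0.05 to 0.24. The groups overlapped in each of the 3 genes. Across the whole set, the intervals of 26 of the 41 members lay within 0.3 on either side of 0, which bounds those changes at 1.23-fold.

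Among the 8 genes of the spindle checkpoint, CDC20 and separase, 2 rose and 1 fell, with a median change of 0.12. The shares were 25% and 12.5%, against 12.9% and 10.7% of all genes. CDC20 measured 10.87, 10.76 and 10.76 in BIX01294, against 10.54, 10.54 and 10.45 in DMSO. All BIX01294 values were higher, the rise was 1.22-fold (log2 0.29, SE 0.059, adjusted p 0.00978), and it passed in all 15 alternative settings. BUB1B, encoding the checkpoint protein BUBR1 that restrains CDC20, measured 11.05, 11.01 and 11.09 in BIX01294, against 10.81, 10.86 and 10.79 in DMSO. The groups were separate and the change of 0.23 had an adjusted p of 0.0161, which became 0.0627 without BIX01294 replicate 3 and 0.0561 without DMSO replicate 1.

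ESPL1, the protease that cleaves cohesin at anaphase, measured 9.70, 9.72 and 9.69 in BIX01294, against 10.03, 9.97 and 9.93 in DMSO. The BIX01294 arrays were all lower and almost equal to each other, and the change of -0.27 (SE 0.053, adjusted p 0.00772) passed in all 15 alternative settings. PTTG1, encoding securin, the inhibitor of separase, had a change of -0.13 with an interval of -0.27 to 0.01. Its near-identical paralogs PTTG2 and PTTG3P may share probes with it, so its value is uncertain. After quantile normalization PTTG1 passed the test as lower (adjusted p 0.043).

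MAD2L1, encoding the checkpoint protein MAD2, lay near the threshold. It measured 10.47, 10.37 and 10.42 in BIX01294, against 10.13, 10.34 and 10.07 in DMSO, so the groups were separate only by a narrow gap at DMSO replicate 2. The change was 0.24 with an adjusted p of 0.0606, and without DMSO replicate 2 the adjusted p was 0.0182. The checkpoint kinases TTK (MPS1) and BUB1 had changes of 0.13 and 0.11 with intervals of -0.03 to 0.29 and -0.01 to 0.23. BUB3, which docks BUB1 and BUBR1 at kinetochores, had a change of -0.03 with an interval of -0.18 to 0.11.

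In the chromosomal passenger complex, which corrects faulty attachments and guides cytokinesis, 1 of 4 genes passed, as higher (25%, against 12.9% of all genes). CDCA8, encoding the subunit borealin, measured 10.06, 10.00 and 10.01 in BIX01294, against 9.78, 9.81 and 9.70 in DMSO. It rose 1.2-fold without overlap (log2 0.26, SE 0.055, adjusted p 0.0116) and passed in all 15 alternative settings. Its partners did not pass: BIRC5 (survivin) had a change of 0.16 with an interval of 0.02 to 0.31, INCENP, the scaffold, 0.04 with an interval of -0.08 to 0.16, and AURKB, the kinase, -0.03 with an interval of -0.20 to 0.13. A second row of BIRC5 gave 0.22 (adjusted p 0.0688).

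Of the 8 kinesins, only KIF23 passed, as higher (12.5%, against 12.9% of all genes), and none fell (against 10.7% of all genes). KIF23, the motor of the centralspindlin complex in the midzone, measured 10.75, 10.80 and 10.83 in BIX01294, against 10.53, 10.61 and 10.39 in DMSO. The groups were separate, with DMSO replicate 3 lowest, and the 1.21-fold rise (log2 0.28, SE 0.068, adjusted p 0.0202) passed in 12 of 15 alternative settings. It was lost without BIX01294 replicate 2 (adjusted p 0.054), without BIX01294 replicate 3 (0.0751) and without DMSO replicate 1 (0.0526).

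KIF2C, which depolymerizes microtubules at centromeres, had a change of -0.17 with an interval of -0.32 to -0.01 and an adjusted p of 0.123. All 3 BIX01294 values of KIF2C lay below the DMSO values, but BIX01294 replicate 2 and DMSO replicate 3 were nearly equal, and KIF2C passed as lower without DMSO replicate 3 (adjusted p 0.0464). KIF11, which pushes the spindle poles apart, had a change of 0.10 and an interval of -0.02 to 0.23. KIF15, which shares that task, had the widest spread in BIX01294 and a change of 0.09 with an interval of -0.09 to 0.27. KIF18A, which dampens chromosome oscillation, had a change of -0.11 with an interval of -0.26 to 0.04.

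The changes of KIF14 and KIF20A, motors of cytokinesis, were -0.02 and -0.04, and that of the chromosome arm motor KIF4A was 0.04. KIF4A has a near-identical paralog, KIF4B, that may share its probes.

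None of the 6 measured centromere and kinetochore members passed, and their median change was 0.003. Of all genes, 12.9% rose and 10.7% fell. SPC24 and SPC25, subunits of the NDC80 complex that holds microtubules, had changes of 0.23 and 0.13, with intervals of 0.03 to 0.42 and -0.03 to 0.28. NDC80 and NUF2, the other two subunits of that complex, had changes of -0.06 and 0.06. CENPF, a large kinetochore protein, measured 11.38, 11.48 and 11.49 in BIX01294, against 11.64, 11.64 and 11.57 in DMSO. Its BIX01294 values were all lower, with a change of -0.17 and an adjusted p of 0.0679. CENPE, the kinetochore kinesin, had a change of -0.08 with an interval of -0.26 to 0.09.

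Of the last 4 genes, ANLN alone passed, as higher (25%, against 12.9% of all genes). It measured 11.47, 11.42 and 11.53 in BIX01294, against 11.03, 11.07 and 10.996 in DMSO. All BIX01294 values were higher by a wide margin, and the change of 0.44 (SE 0.057, adjusted p 0.0012) passed in all 15 alternative settings. TOP2A, the topoisomerase that untangles chromosomes, had a change of -0.16 with an interval of -0.29 to -0.02 and an adjusted p of 0.0956, with its BIX01294 values all below its DMSO values. ECT2, which activates RHOA at the division site, and PRC1, which bundles midzone microtubules, had changes of 0.04 and 0.01.

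Genes of neighbouring steps were counted from lists made by function. Among 17 measured subunits, activators and inhibitors of the anaphase-promoting complex other than CDC20, 5 rose (29.4%, against 12.9% of all genes) and none fell (against 10.7% of all genes), with a median change of 0.11. FBXO5 (EMI1), which inhibits the complex before mitosis, averaged 11.33 ± 0.07 in BIX01294 and 10.95 ± 0.05 in DMSO (SD, n = 3 each; adjusted p 0.00282). The subunits ANAPC10 and ANAPC13 rose 1.3-fold and 1.23-fold. Without BIX01294 replicate 3 the list held 3 genes that passed, and ANAPC10 did not (adjusted p 0.0544). Among 19 condensin and cohesin genes, 6 rose (31.6%, against 12.9% of all genes) and none fell (against 10.7%), with a median of 0.15. They included the cohesin subunit STAG1 (1.47-fold, adjusted p 0.0012), the condensin subunit NCAPH (1.28-fold) and the cohesin protector SGO1 (1.29-fold).

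Of 29 measured genes for other centromere and kinetochore proteins, 18 rose (62.1%, against 12.9% of all genes) and none fell (against 10.7%), with a median change of 0.28. None of the 6 measured kinetochore genes of the mitotic set had passed. CENPI, a subunit of the constitutive centromere network, averaged 10.14 ± 0.06 in BIX01294 and 9.55 ± 0.11 in DMSO, SKA3, which couples kinetochores to microtubules, averaged 10.28 ± 0.04 in BIX01294 and 9.78 ± 0.06 in DMSO, and CENPO rose 1.32-fold. The difference between the groups of genes was not tested.

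Of 29 other genes of mitotic entry, the spindle and cytokinesis, 7 rose (24.1%, against 12.9% of all genes) and 2 fell (6.9%, against 10.7% of all genes), with a median of 0.11. The kinase MELK averaged 10.30 ± 0.003 in BIX01294 and 9.67 ± 0.09 in DMSO, BORA, a cofactor of Aurora A, rose 1.44-fold and TRIP13, which remodels MAD2, rose 1.4-fold. NEK2, a centrosome kinase, averaged 9.23 ± 0.04 in BIX01294 and 9.49 ± 0.08 in DMSO (adjusted p 0.0163). NEK2 did not pass without BIX01294 replicate 3, DMSO replicate 1 or DMSO replicate 2 (adjusted p 0.0645, 0.0636 and 0.0615), and without any of these arrays 0 genes of the list fell. Of 25 genes for kinesins that carry cargo or have other roles and for kinesin-associated subunits, 2 rose and 2 fell, with a median of 0.03. Each count was 8.0% of the list, below the 12.9% of all genes that rose and the 10.7% that fell. KIF5C rose 1.21-fold and KIF3B 1.18-fold, while KIF5A fell 1.43-fold and KIF3C fell 1.17-fold. KIF3B did not pass without BIX01294 replicate 2, BIX01294 replicate 3 or DMSO replicate 2 (adjusted p 0.053, 0.0545 and 0.0589). KIF3C did not pass on leaving out BIX01294 replicate 1 or 3 or DMSO replicate 1 or 2 (adjusted p 0.104 to 0.125), nor with centring or the replicate block.

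Transcriptional regulators of the cell cycle moved in both directions. Of 19 MuvB, MYB, pocket protein and E2F family genes, 8 rose (42.1%, against 12.9% of all genes) and 4 fell (21.1%, against 10.7%). E2F8 and E2F7, atypical E2F repressors, rose 1.64-fold and 1.51-fold, the MYB family gene MYBL1 rose 1.59-fold, and TFDP2, a dimerization partner of E2F proteins, fell 1.52-fold. Of 31 G1/S and replication genes, 22 rose (71.0%, against 12.9% of all genes) and none fell (against 10.7%), with a median change of 0.31, against 0.04 in the mitotic genes. CCNE2, encoding the G1/S cyclin E2, averaged 9.84 ± 0.13 in BIX01294 and 8.73 ± 0.07 in DMSO, a 2.16-fold rise (adjusted p 8.09e-05). FEN1, the flap endonuclease, and CDC6, a replication licensing factor, rose 1.61-fold and 1.54-fold.

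**Figure D3:**
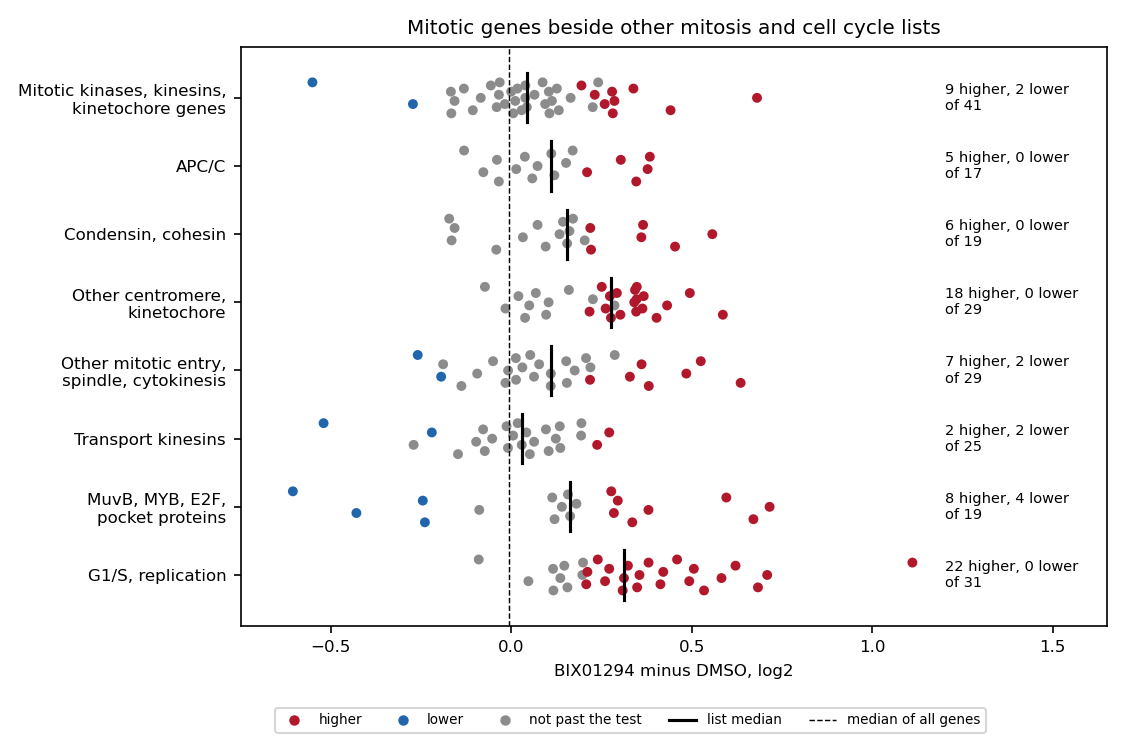
Log2 change, BIX01294 minus DMSO (horizontal axis), of each measured gene (points) in the mitotic set and in the lists of neighbouring functions, with the median of each list marked. The G1/S and replication list (median 0.31) and the other centromere and kinetochore list (median 0.28) lie to the right of the mitotic set (median 0.04).

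Promoter words were counted in every RefSeq window of a gene, and 36 of the 42 members had a window. A CHR word was present in 31 of the 36 (86.1%), against 24.3% of the 14230 tested genes with a window and 27.9% of all 27305 genes in the RefSeq table. CCAAT was present in 29 (80.6%), against 42.2% of tested genes, and an E2F word in 9 (25%), against 15.2% of tested genes. Words of different kinds that overlap were counted separately.

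A CHR word was found in 7 of the 9 members that rose, 2 of the 2 that fell, 21 of the 24 with a window that did not pass, and CENPA. The members without one were CCNA2, CDC25A, BUB1, AURKB and SPC24, which says only that these letters are not in the windows read. The G1/S and replication genes held a CHR word in 5 of 27 (18.5%) and an E2F word in 20 of 27 (74.1%). The other centromere and kinetochore genes held a CHR word in 37.5% and an E2F word in 41.7%, and the other genes of mitotic entry, spindle and cytokinesis held a CHR word in 72.0%. These shares describe the lists, and no test links them to the changes.

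**Figure D4:**
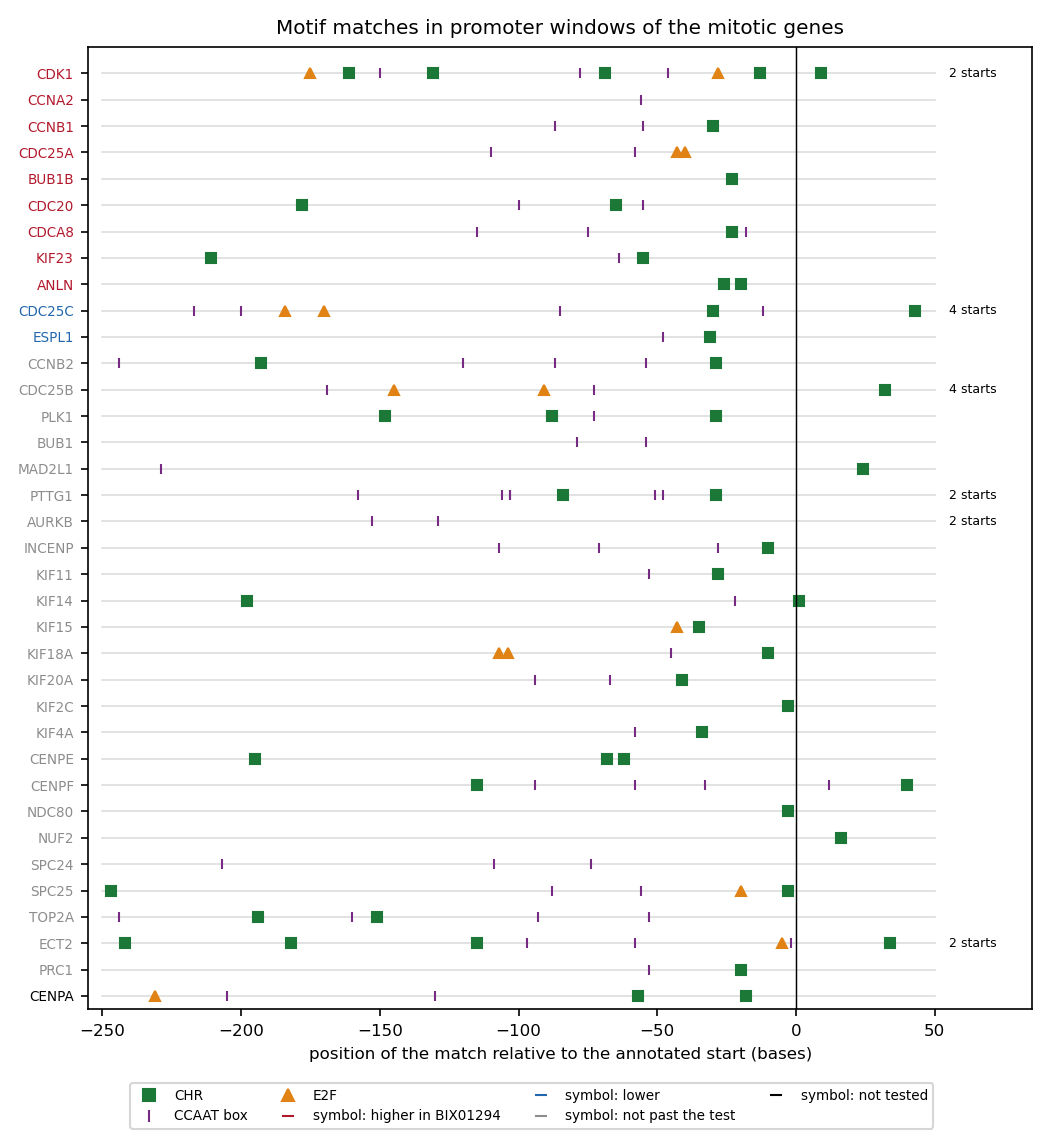
Distance from the annotated transcription start in bases (horizontal axis) of each CHR, CCAAT and E2F word in the promoter windows of the mitotic genes (points). In the windows printed above, the CHR words of CCNB1 and CDC25C lie 30 bases before the start and that of ESPL1 lies 31 bases before it.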

How the data were processed

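RNA of 6 samples (3 BIX01294, 3 DMSO) was measured on 1 array each. The deposited values are log2 expression values per transcript cluster, a scale read from the values themselves. Partek is named in the submitters' processing notes. How background, scaling between arrays and probe summaries were handled is not given in the sources used here. Scaling between arrays, if done, would hide a shift common to most genes. No detection call is given, and precision is limited by having 3 arrays per group.

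Of the annotated rows, 19158 had exactly 1 gene symbol, 1388 several and 11775 none. Symbols were updated through Entrez identifiers (19128 matched the RefSeq table of GRCh38.p14), and the row with the highest mean was kept for the 637 genes with several. The fit used limma 3.58.1 (R 4.3.3) on the values unchanged, with treatment as the only term, no filter, two-sided moderated tests and Benjamini-Hochberg adjustment over all 18404 genes, at a threshold of 0.05. The script was tested on 20 simulated data sets with 200 changed genes each. It recovered 10.5% of log2 changes of 0.25, 67.5% of 0.5 and 95.2% of 1, so small changes can be missed. Far more genes passed in the real data (2379 higher, 1970 lower), so these shares are only a rough guide. Changes are BIX01294 minus DMSO. Intervals are 95% intervals from this fit, unadjusted for the number of genes.

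All members were named. From each other list the genes named were the largest rise and the largest fall past the threshold and up to 2 more in order of adjusted p. Among markers of other cell types, the genes named were picked with their values in view. The members and lists were chosen with earlier results of these data known, so lists received counts and medians and no test. The alternatives were quantile normalization, median centring, 2 filters on dim genes, the mean of a gene's rows, array weights, robust estimation with an intensity trend, a block for the replicate number, a fit over every row with a symbol, and each array left out. Promoter windows came from RefSeq, GRCh38.p14.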

Additional observations from a re-analysis of the deposited data

How the results depend on the processing

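Calls were recomputed under 15 alternative settings, and CDK1, CDC25A, CDC20, CDCA8 and ANLN (higher) and CDC25C and ESPL1 (lower) passed with the same direction in each. The number of members higher was 8 to 13 under the 9 settings that keep every array. It was 5 to 9 on leaving out 1 array, lowest without DMSO replicate 1. The all-gene shares also differed between settings. The share of members higher was above that of all genes except in 1 setting. That was the test among genes above the median of means, where 12 of 41 members was slightly below it. The share of members lower was below that of all genes in every setting. The number lower, 2 as reported, was 5 after quantile normalization, 5 among genes above the median of means, 5 with an intensity trend and robust estimation, 4 with array weights and 2 to 3 on leaving out 1 array. KIF2C and CENPF were each called lower in 5 settings, MAD2L1 higher in 5. TOP2A was called lower in 2 settings and PTTG1 in 1, while SPC24 was called higher in 3, BIRC5 in 2 and FOXM1 in 1. The median change of the members ran from 0.014 (quantile normalization) to 0.076 (median centring).

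In the other mitosis and cell cycle lists together, 68 of 169 genes were higher and 8 lower, against 12.9% and 10.7% of all genes. The lower count was 5 after centring, 13 of the 158 genes above the median of means and 13 with the trend and robust estimation. It was 5 with the replicate block and 4 to 8 on leaving out 1 array. The higher count was 55 to 63 on leaving out 1 array. In every setting the lower share of these lists was below that of all genes, and the higher share was above it. Over all genes, leaving out 1 array gave 1699 to 1910 higher and 1318 to 1818 lower.

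Both groups carry replicate numbers 1 to 3. Deviations of same-numbered arrays correlated at 0.193, -0.176 and 0.054, and those of differently numbered arrays at -0.324 to 0.292. With 3 arrays per group, these values cannot show whether the numbers mark a pairing. With the replicate block, 9 members were higher and 2 lower, with SPC24 (adjusted p 0.0407) in place of CCNA2 (0.0661).

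Signs turned only among members that did not pass. After quantile normalization the log2 change was -0.027 for CDC25B, -0.008 for PLK1, -0.002 for KIF4A, -0.01 for ECT2 and -0.035 for PRC1. After centring it was 0.033 for TPX2, 0.001 for AURKB and 0.015 for KIF14, and with array weights -0.003 for PLK1 and -0.001 for PRC1. On leaving out 1 array the change ran from -0.013 to 0.037 for CCNB2, -0.004 to 0.035 for PLK1, -0.035 to 0.029 for TPX2, -0.074 to 0.014 for BUB3, -0.082 to 0.039 for AURKB, -0.068 to 0.025 for KIF14 and -0.013 to 0.015 for PRC1. The cause was not tested.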
